A study of Mus musculus with 21 samples.

Results

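The untreated ganglia named LDRG make up 6 of the 21 libraries of a study of the mouse gene Tmem45b: 3 from conditional knockout mice (Tmem45b-flox::Mrgprd-cre, cKO below) and 3 from Tmem45b-flox mice (flox). They were chosen by their names, and all genes were compared between genotypes. RNA captured on oligo(dT) beads was sequenced in paired ends, and the tables give unnormalized counts for each gene. All 6 libraries come from mice with a floxed Tmem45b, and the cKO mice carry in addition a Cre recombinase driven from Mrgprd, which limits Cre to cells that have used that gene. The labels do not give the ages of these mice, which part of Tmem45b is floxed, or whether each library is 1 animal, so every p-value below rests on the spread between libraries, which may be technical. The other untreated libraries, named con/ko (4 cKO, 3 flox), were deposited in a separate table and enter only where they are named. The remaining 8 libraries (4 cKO, 4 flox) came from a CFA model, CFA being in pain research the inflammatory agent complete Freund's adjuvant. They enter beside the markers of sex and body level, Tmem45b, Scaf11, H2ac18, the list counts with a shared spread and the closing values. The labels give neither the dose nor the time of CFA.

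Dorsal root ganglia hold the cell bodies of the sensory neurons that carry touch, position, temperature, itch and pain to the spinal cord. Mrgprd encodes a G protein-coupled receptor found on nonpeptidergic C-fibre neurons that end in the skin, a class distinct from the peptidergic neurons that release CGRP and substance P. Tmem45b encodes a membrane-spanning protein of the small Tmem45 family. In RNA from a whole ganglion, fewer cells of a type and less RNA per cell cannot be told apart.

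The 6 libraries held 62.1 to 72.5 M counts each (M, 1e6) over 24524 genes, of which 16050 had enough counts to be tested. Defining markers of sensory ganglion were present in each library, with Avil between 1066 and 1156 counts per 1e6 (CPM, with library sizes scaled by the trimmed mean of M values) and Scn10a between 1103 and 1344 CPM. Opalin and Mog, markers of central oligodendrocytes, were at 0 and at or below 0.224 CPM. All 6 libraries had a male pattern, with Xist at or below 0.322 CPM and Ddx3y at 73 to 89.1 CPM. The CFA libraries differ from LDRG in sex, and the con/ko libraries mix sexes and body levels. The CFA libraries had a female pattern, with 19603 to 29613 Xist counts in cKO, 19976 to 26788 in flox, and 0 Ddx3y counts in all 8. Of the con/ko libraries, 2 of 4 cKO and 2 of 3 flox had at least 100 Xist counts. Their names carry a letter C in 3 of 4 cKO and 1 of 3 flox libraries and L in the others. Hoxc10, a gene of lumbar body level, was at 0 counts in the 4 libraries with C and at 597 to 868 counts in LDRG. The CFA libraries were near the LDRG level, at 650 to 858 Hoxc10 counts in cKO and 622 to 901 in flox. In con/ko the letters C and L are thus spread unequally over the genotypes, and their part in the con/ko values was not tested. Skeletal muscle RNA varied between libraries. Acta1, the actin of skeletal muscle, had 105, 0.486 and 0.548 CPM in cKO libraries 1 to 3, against 8.49, 11.8 and 37.7 CPM in flox libraries 1 to 3. The summed level of the 30 skeletal muscle genes ranged from 98.2 to 1025 CPM in cKO and from 174 to 362 CPM in flox. Adipoq, made by fat cells, had 3.52 CPM in flox library 3, and 0.111 to 0.224 CPM in the other 5 libraries. The first principal component (29.4% of the variance) placed cKO libraries at 32.2, -34.7 and -25.6 and flox libraries at 4.6, 0.4 and 23.1, and so did not separate the genotypes.

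Tmem45b fell in cKO ganglia. It had 66, 70.6 and 58.5 CPM in cKO libraries, against 121, 129 and 142 CPM in flox libraries. The groups did not overlap, and the mean was 65.0 ± 6.09 CPM in cKO and 131 ± 10.5 CPM in flox (SD, n = 3 each). The log2 difference was -1.01 (SE 0.08, adjusted p = 0.0283, quasi-likelihood test of edgeR, Benjamini-Hochberg), and the two-sided exact permutation test gave p = 0.1, the smallest that 3 against 3 libraries allow. The gene spans chr9:31426196-31464462 (minus strand, mm10). Its count takes in any exon left after recombination and all cells without Cre. The adjusted p was 0.0887, 0.0665 and 0.0663 without cKO library 1, 2 or 3 and 0.0683 without flox library 2, while the log2 difference stayed between -1.07 and -0.93 whichever library was left out. In raw counts Tmem45b had 3630 to 5084 in LDRG cKO and 8732 to 10206 in LDRG flox. In the CFA model libraries it had 3986 to 7626 in cKO and 4527 to 9564 in flox, and the genotypes overlapped there.

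The 2 relatives of Tmem45b were scarcely expressed. Tmem45a had 0.519, 0.444 and 0.564 CPM in cKO and 0.334, 0.491 and 0.794 CPM in flox libraries. Tmem45a2 had at most 0.486 CPM in any cKO library and 0.238 CPM in any flox library. Neither passed the test, at log2 differences of -0.08 (SE 0.38) and 0.23 (SE 1.136).

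Mrgprd, the gene after which the Cre line is named, did not pass the test. It had 143, 144 and 149 CPM in cKO libraries, against 134, 122 and 127 CPM in flox libraries. Each cKO library lay above each flox library, at a log2 difference of 0.19 (SE 0.04, unadjusted p = 0.00398, adjusted p = 0.991). In the con/ko libraries the log2 difference of Mrgprd was -0.25 (SE 0.22), and the difference between the sets was 0.45 (SE 0.26, unadjusted p = 0.108).

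**Figure D1:**
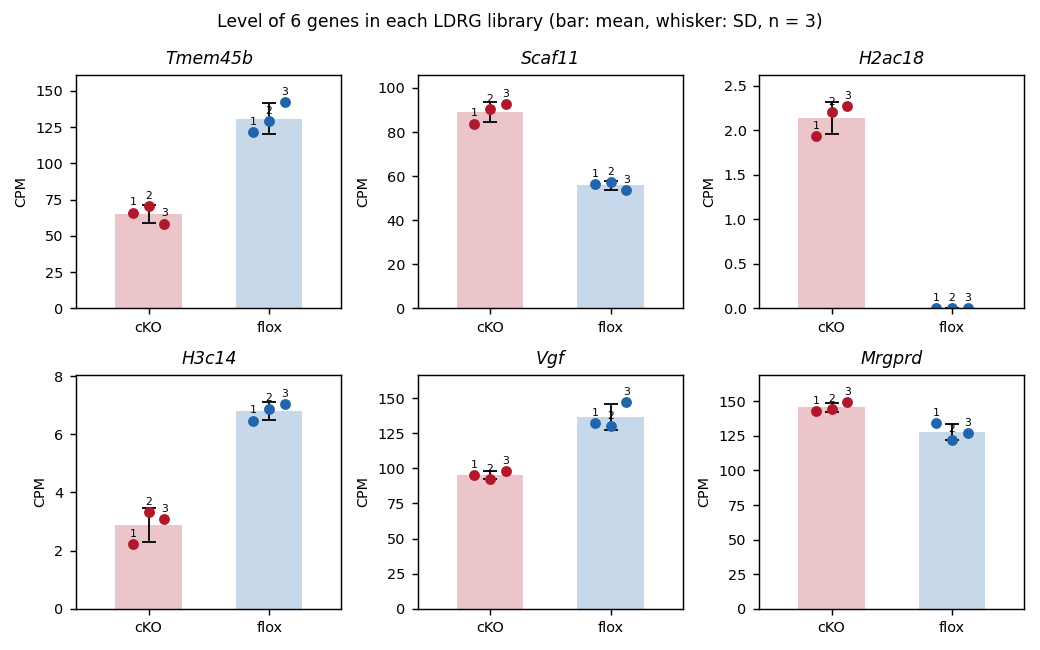
Level of 6 genes in CPM (vertical axis) in the 3 cKO libraries (red) and the 3 flox libraries (blue) of the LDRG set, with points numbered by replicate, bars at the mean and whiskers of 1 SD. Tmem45b sits at 58.5 to 70.6 CPM in cKO and 121 to 142 CPM in flox. In each panel the groups do not overlap, beside 5.13% (cKO above) and 5.3% (cKO below) of all genes tested. Only Tmem45b, Scaf11 and H2ac18 passed the test.

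Over all genes, 3 of 16050 passed the test: Scaf11 and H2ac18 rose in cKO (0.0125% of genes tested) and Tmem45b fell (0.00623%). At an unadjusted p under 0.05 there were 359 higher genes (2.24%) and 373 lower genes (2.32%). The 2 groups did not overlap at 824 genes with cKO above flox (5.13%) and at 851 with cKO below flox (5.3%). DESeq2 on the same counts called 49 genes, 18 higher (0.112%) and 31 lower (0.193%), the 3 above among them. All 49 had groups that did not overlap and an edgeR unadjusted p under 0.05. The median log2 difference over all genes tested was -0.0026.

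**Figure D2:**
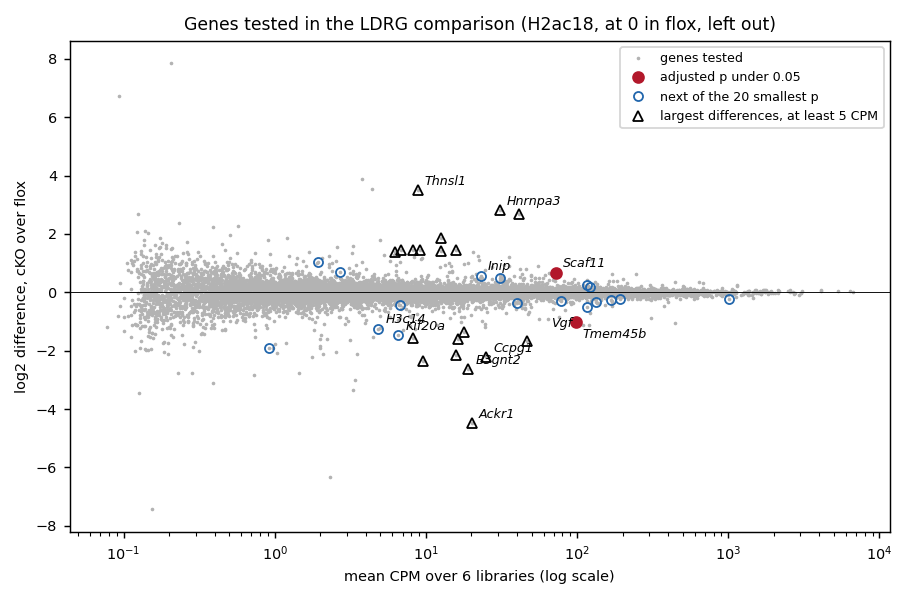
Log2 difference of cKO over flox (vertical axis) against the mean CPM over the 6 libraries (horizontal, log scale) for the genes tested, with Tmem45b and Scaf11 in red, the other genes of the 20 smallest p as open circles, and the largest differences among genes of at least 5 CPM as triangles. The triangles, such as Thnsl1 at 3.49 and Ackr1 at -4.49, lie far from 0 but did not pass the test; H2ac18 is left out because it was at 0 in flox.

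Scaf11, which encodes an SR-related protein that takes part in pre-mRNA splicing, rose in cKO ganglia. It had 83.8, 90.2 and 92.7 CPM in cKO libraries, against 56.3, 57.4 and 53.6 CPM in flox libraries. The mean was 88.9 ± 4.6 CPM in cKO and 55.8 ± 1.96 CPM in flox (SD, n = 3 each), a log2 difference of 0.67 (SE 0.05, adjusted p = 0.0283, edgeR quasi-likelihood test). It spans chr15:96411699-96460843 (minus strand, mm10), and no other gene of the count table overlaps it. The con/ko libraries gave a log2 difference of 0.21 (SE 0.15, unadjusted p = 0.193). In raw counts Scaf11 had 5754 to 6501 in the LDRG cKO libraries, against 3849 to 4095 in LDRG flox. In the CFA model libraries, 4 of each genotype, the highest count was 6614 in cKO, where the median was 3777, and 6767 in flox, where the median was 3823.5. The adjusted p was 0.0868 without cKO library 2, 0.0939 without cKO library 3 and 0.0652 without flox library 1.

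Of 32 SR proteins and SR-related factors tested, 1 rose (Scaf11) and 0 fell, and their median log2 difference was -0.02. Clk3, a kinase that phosphorylates SR proteins, had 48.1, 49.1 and 49.9 CPM in cKO and 47.4, 40.0 and 39.3 CPM in flox libraries (0.22, SE 0.08, unadjusted p = 0.0299). Srrm1, an SR-related matrix protein of the splicing machinery, stood at 0.15 (SE 0.08) and Rbm25, a splicing regulator, at -0.07 (SE 0.04).

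H2ac18, a replication-dependent histone H2A gene, was counted in the cKO libraries of LDRG only. It had 138, 159 and 141 counts in cKO libraries 1 to 3 (1.94, 2.21 and 2.27 CPM) and 0 counts in each of the 3 flox libraries, at least 153-fold higher in cKO when flox is set to 3 counts over its 3 libraries (adjusted p = 0.0283, edgeR quasi-likelihood test). The adjusted p was 0.0838, 0.106 and 0.0939 without cKO library 1, 2 or 3. RNA was captured on oligo(dT) beads, and what share of the H2ac18 RNA they capture was not tested. H2ac18 spans chr3:96245497-96246052 (plus strand, GRCm38.p6), and H3c14, a histone H3 gene, starts downstream of it on the same strand at 96246685. The span of H2ac18 overlaps 3 other genes annotated in GENCODE vM21, and their part in its counts was not tested. H3c14 ran the other way, at 2.22, 3.33 and 3.08 CPM in cKO, against 6.47, 6.88 and 7.05 CPM in flox libraries (-1.24, SE 0.17, adjusted p = 0.274). Summed, the 2 genes had 4.15, 5.54 and 5.35 CPM in cKO and 6.47, 6.88 and 7.05 CPM in flox libraries. Elsewhere in the study H2ac18 ranged from 0 to 22 counts in con/ko cKO, 0 to 164 in con/ko flox, 0 to 192 in CFA cKO and 3 to 62 in CFA flox libraries, and the genotypes overlapped there.

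H2ac18 has a near-identical copy, H2ac19, on the opposite strand of the same cluster, and H2ac19 was at 0 counts in all 21 libraries. The coding sequences of both genes in GENCODE vM21 are 393 bases long with 0 mismatches, and the H2ac19 transcript of 528 bases is contained whole in that of H2ac18. Reads inside that shared run cannot be told apart, and the H2ac18 counts may hold reads of either. The first 90 bases of the coding sequence, shown because both copies carry them, are given with the start codon in capitals.
H2ac18 coding start: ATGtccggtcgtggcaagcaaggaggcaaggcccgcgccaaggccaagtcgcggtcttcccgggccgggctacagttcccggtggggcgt
The promoter windows of the copies (RefSeq, GRCm38.p6, 250 bases before to 50 bases after the annotated start) share an unbroken run of 219 bases. They are shown to let the copies be compared, with CCAAT and TATAAA on either strand in capitals.
H2ac18, chr3:96245247-96245546, plus strand: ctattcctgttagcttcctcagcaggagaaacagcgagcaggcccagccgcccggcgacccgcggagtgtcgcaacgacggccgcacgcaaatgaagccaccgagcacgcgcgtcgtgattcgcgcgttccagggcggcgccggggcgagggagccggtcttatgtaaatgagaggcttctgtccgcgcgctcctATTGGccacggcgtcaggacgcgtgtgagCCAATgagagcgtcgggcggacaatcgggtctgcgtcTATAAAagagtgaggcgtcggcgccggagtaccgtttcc
H2ac19, chr3:96240325-96240624, minus strand: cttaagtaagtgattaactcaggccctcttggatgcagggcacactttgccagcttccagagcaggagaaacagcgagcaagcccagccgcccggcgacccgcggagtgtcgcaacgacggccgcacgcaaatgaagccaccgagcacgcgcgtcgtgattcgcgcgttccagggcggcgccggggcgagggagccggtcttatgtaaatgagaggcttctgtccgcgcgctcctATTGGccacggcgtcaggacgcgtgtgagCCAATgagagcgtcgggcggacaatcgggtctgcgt
CCAAT occurs 2 times in each window and in 37.4% of all 32851 promoter windows of this length. TATAAA occurs 1 time in the H2ac18 window and 0 times in that of H2ac19, whose last base ends the shared run, and in 13.6% of all windows. In the H2ac18 window TATAAA lies beyond that run and after the annotated start. The H2ac19 window stops before the matching bases, so the copies cannot be compared there. Beyond H2ac18, the 27 core histone genes tested had 0 further calls and a median log2 difference of 0.06. H2ac6, an H2A gene of another cluster, had 0.337, 0.333 and 0.548 CPM in cKO and 0.778, 0.589 and 0.724 CPM in flox libraries.

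The genes described next are among the 20 with the smallest p and did not pass the test. Vgf, the precursor of secreted neuropeptides that is induced by neurotrophins, had 95.2, 92.3 and 98.2 CPM in cKO, against 132, 130 and 147 CPM in flox libraries. All cKO libraries lay below all flox libraries, at a log2 difference of -0.52 (SE 0.06, adjusted p = 0.11 by edgeR and 1.04e-12 by DESeq2), and without flox library 3 it was -0.46 with an edgeR adjusted p of 0.0439. Shc1, an adaptor that links receptor tyrosine kinases to Ras, had 157, 149 and 150 CPM in cKO and 192, 185 and 173 CPM in flox libraries. S1pr3, a receptor for sphingosine 1-phosphate that acts in itch and pain, had 182, 176 and 174 CPM in cKO and 214, 200 and 215 CPM in flox libraries. Neither passed the test, at log2 differences of -0.27 (SE 0.05) and -0.24 (SE 0.04). Sema3b, a secreted axon guidance protein, stood the other way at 131, 127 and 130 CPM in cKO and 115, 114 and 114 CPM in flox libraries (0.17, SE 0.03, adjusted p = 0.969).

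In the same ranking, Inip, a subunit of the complex that binds single-stranded DNA, had 27.1, 28.1 and 27.5 CPM in cKO, against 19.1, 17.1 and 19.6 CPM in flox libraries (0.57, SE 0.07, adjusted p = 0.267). Timeless, which protects the replication fork, had 35.8, 33.9 and 35 CPM in cKO and 49.0, 44.8 and 42.5 CPM in flox libraries (-0.38, SE 0.07). Rbbp6, a ubiquitin ligase that takes part in mRNA 3' end processing, stood at -0.28 (SE 0.05). The mitotic kinesin gene Kif20a had 4.49, 2.72 and 3.24 CPM in cKO, against 9.25, 9.56 and 10.2 CPM in flox libraries (-1.47, SE 0.18, adjusted p = 0.252). Kif20a overlaps Cdc23, a subunit of the anaphase-promoting complex, and the 2 together had 30.1, 44.3 and 47.1 CPM in cKO and 33.3, 33.6 and 35.5 CPM in flox libraries. The rule for reads in an overlap is unknown here, so the share of each gene is uncertain.

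Also in that ranking, Ctsl, a lysosomal cysteine protease, had 965, 934 and 898 CPM in cKO, against 1072, 1077 and 1091 CPM in flox libraries (-0.21, SE 0.04, adjusted p = 0.991). Ly86, the partner of the receptor RP105 on immune cells, had 122, 111 and 123 CPM in cKO and 142, 142 and 161 CPM in flox libraries (-0.32, SE 0.06). Naip1, an inflammasome sensor of bacterial proteins, stood at -0.44 (SE 0.09). The 18 macrophage genes tested had 0 members at an unadjusted p under 0.05, beside 2.24% higher and 2.32% lower over all genes. Their median was 0.06. The rest of the 20 genes with the smallest p were H2-M11, Scp2-ps2, Fam163b, Vmn1r85 and Snn, with log2 differences of -1.91, 0.50, 0.71, 1.04 and 0.24. H2-M11 and Vmn1r85 belong to large families of similar genes and Scp2-ps2 is a pseudogene, so their counts are uncertain.

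Of the genes called by DESeq2 but not by edgeR, 6 are given here, chosen after their values were seen, as were Cadm3, Cdc23, Drp2, Gjb1 and Srrm1 elsewhere. Nptx1 and Nptx2, secreted pentraxins that gather glutamate receptors at synapses, had edgeR log2 differences of -0.23 (DESeq2 adjusted p = 0.0472) and -0.28 (0.0179). Basp1, a growth cone protein, stood at -0.25 (DESeq2 adjusted p = 0.0177), and Syt4, a synaptotagmin of neuropeptide vesicles, at -0.21 (0.018). Etv5, a transcription factor of the ETS family, stood at -0.38 (DESeq2 adjusted p = 0.003). Sting1, which signals cytosolic DNA to interferon, stood at -0.65 (DESeq2 adjusted p = 0.0266). None of these passed the edgeR test.

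Genes of nerve injury and axon regeneration stood lower in cKO as a group, with 16 of 18 tested members below 0 and 0 of them past the test. Their median log2 difference was -0.47, and 7 of 18 were lower and 0 higher at an unadjusted p under 0.05, beside 2.32% and 2.24% of all genes tested. Gap43, a growth cone protein made in regenerating axons, had 244, 244 and 240 CPM in cKO, against 268, 278 and 300 CPM in flox libraries (-0.21, SE 0.05, adjusted p = 0.991). Sox11, a transcription factor of axon regrowth, had 16.5, 18.9 and 17.9 CPM in cKO and 20.7, 26.9 and 28.3 CPM in flox libraries (-0.51, SE 0.13). Gadd45a, induced by stress and nerve injury, had 23.8, 22.9 and 23.2 CPM in cKO and 25.4, 29.2 and 32.3 CPM in flox libraries (-0.31, SE 0.09). Crh, a neuropeptide gene, was near the detection limit, at 0.0278 to 0.113 CPM in cKO and 0.320 to 1.41 CPM in flox libraries. In these 4 genes, named for the smallest p of the list, each cKO library lay below each flox library. Over the list this held for 5 of 18 members, beside 5.3% of all genes tested.

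Flox library 3 had the highest level of 16 of these 18 genes and, ties included, the lowest level of 2. Among these 2 was Lifr, the receptor of leukaemia inhibitory factor. The highest log2 difference in the list was 0.61. Lifr had 712, 753 and 704 CPM in cKO and 801, 804 and 95.4 CPM in flox libraries, and the summed level of the list was 1243, 1287 and 1276 CPM in cKO and 1383, 1452 and 892 CPM in flox libraries. Lifr was chosen after its values were seen. Atf3, the transcription factor most used to mark injured sensory neurons, had 11.2, 12.7 and 23.1 CPM in cKO and 16.5, 27.9 and 48.4 CPM in flox libraries. Sprr1a, another gene of injured neurons, had 0.715, 2.64 and 8.82 CPM in cKO and 2.90, 3.62 and 23.3 CPM in flox libraries. Atf3 and Sprr1a were chosen after their values were seen, their groups overlapped, and neither passed the test (-0.98, SE 0.42, and -1.30, SE 1.04). Without flox library 3 the median of the list was -0.19, with 6 of 18 members lower and 0 higher at an unadjusted p under 0.05. Without cKO library 1 there were 4 lower members, and without flox library 1 there were 11. Flox library 3 also carried the fat cell transcripts given above, and the part of other tissue in these differences was not tested. The con/ko libraries share none with this set but differ in muscle RNA between genotypes, with 28 of 29 muscle genes tested lower in cKO at an unadjusted p under 0.05 (median -5.67). The part of muscle RNA in the con/ko values here and below was not tested. There the 17 members tested had a median of 0.11, with 0 lower and 0 higher at an unadjusted p under 0.05, beside 3.91% and 2.69% of 16481 genes.

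Neuropeptide genes of peptidergic nociceptors showed a smaller difference of the same sign. Of 14 peptidergic neuron genes, 5 were lower and 0 higher at an unadjusted p under 0.05, beside 2.32% and 2.24% of all genes tested. Their median was -0.13, and 0 passed the test. There were 3 lower members without cKO library 3, flox library 1 or flox library 2, and 3 with the spread shared with the CFA libraries. Calca, which encodes CGRP, had 1360, 1419 and 1293 CPM in cKO, against 1596, 1660 and 1426 CPM in flox libraries (-0.20, SE 0.07). Adcyap1, the gene of the neuropeptide PACAP, had 114, 127 and 117 CPM in cKO and 141, 142 and 133 CPM in flox libraries (-0.22, SE 0.05). Bdnf, a neurotrophin made by peptidergic neurons, had 65.5, 63.2 and 58.3 CPM in cKO and 91.7, 83.0 and 67.2 CPM in flox libraries (-0.37, SE 0.11). Smr2, a secreted peptide precursor, had 12.9, 11.7 and 11.1 CPM in cKO and 14.8, 16.4 and 18.8 CPM in flox libraries (-0.49, SE 0.11). Trpv1, the heat and capsaicin channel, had 167, 161 and 164 CPM in cKO and 178, 156 and 159 CPM in flox libraries, and its log2 difference was -0.0033 (SE 0.05). Trpv1 was chosen after its values were seen. The con/ko libraries gave a median of 0.13 over the same 14 genes, with 0 members at an unadjusted p under 0.05.

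**Figure D3:**
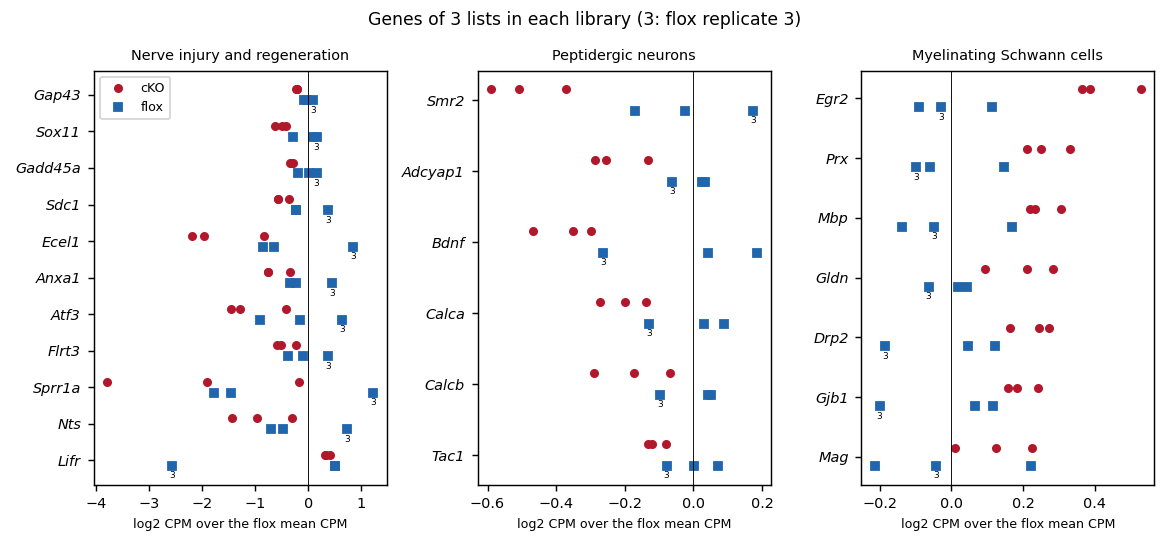
Level of genes from 3 lists in each LDRG library, as log2 CPM over the mean CPM of the flox libraries (horizontal axis), with cKO libraries as red circles above and flox libraries as blue squares below, and flox replicate 3 marked 3. Flox replicate 3 is the highest point for each injury gene drawn except Lifr, where it is the lowest. The cKO points of Egr2, Prx, Mbp, Gldn, Drp2 and Gjb1 lie right of all flox points. Over the myelin list this held for 6 of 16 members, beside 5.13% of all genes tested.

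Among nonpeptidergic genes that define the Mrgprd class, 0 passed the test. Of 14 tested, 1 was higher (Mrgprd) and 1 lower at an unadjusted p under 0.05, beside 2.24% and 2.32% of all genes tested. The median was -0.09. Without flox library 3 the median was -0.0301, without flox library 1 there were 3 lower members, and without cKO library 1 or 3 there were 0. P2rx3, the ATP-gated channel, had 216, 207 and 217 CPM in cKO and 235, 217 and 283 CPM in flox libraries (-0.20, SE 0.09, unadjusted p = 0.0664). Plxnc1, a semaphorin receptor, had 364, 383 and 386 CPM in cKO and 399, 398 and 405 CPM in flox libraries. Its log2 difference was -0.09 (SE 0.04). In the con/ko libraries the same 14 genes had a median of -0.23. There 8 were lower and 1 higher at an unadjusted p under 0.05, beside 3.91% and 2.69% of all genes tested.

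Among the other Mrgpr receptors, 1 of 14 tested genes was higher and 2 were lower at an unadjusted p under 0.05, and 0 passed the test. Of all genes tested, 2.24% were higher and 2.32% lower at that threshold. Mrgpra2a had 10.6, 7.70 and 8.41 CPM in cKO and 11.3, 12.2 and 13.2 CPM in flox libraries (-0.46, SE 0.14). Its neighbour Mrgpra2b had 16.8, 14.9 and 12.8 CPM in cKO and 20.3, 17.2 and 19.9 CPM in flox libraries (-0.37, SE 0.12). These are close copies, so reads may be shared between them. Mrgprb4, which marks neurons that respond to stroking, had 7.11, 8.56 and 7.07 CPM in cKO and 4.25, 6.17 and 6.41 CPM in flox libraries (0.44, SE 0.17).

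All 7 C-fibre mechanoreceptor genes were below 0, with 0 at an unadjusted p under 0.05, beside 2.32% lower and 2.24% higher over all genes. They had a median of -0.11 and lay between -0.36 and -0.04. The median was -0.0308 without flox library 3, -0.17 without flox library 2 and -0.20 without flox library 1, where 2 were lower at an unadjusted p under 0.05. Tafa4, a secreted protein of these neurons, had 39.8, 41.1 and 29.1 CPM in cKO and 36.4, 42.8 and 62.6 CPM in flox libraries. Slc17a8, the vesicular glutamate transporter VGLUT3, had 15.7, 18.3 and 13.3 CPM in cKO and 16.7, 19.2 and 23.4 CPM in flox libraries. The groups overlapped for both. In the con/ko libraries the 7 genes had a median of -0.45. There 6 were lower at an unadjusted p under 0.05, beside 3.91% of all genes tested.

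Large A-fibre and proprioceptive neuron genes stood mostly above 0, with 17 of 19 above 0, 5 higher and 0 lower at an unadjusted p under 0.05, beside 2.24% and 2.32% of all genes tested, and 0 past the test. The median was 0.13, and 0.0809 without flox library 2. Etv1, a transcription factor of proprioceptors, had 199, 218 and 220 CPM in cKO, against 191, 191 and 190 CPM in flox libraries (0.15, SE 0.05). Hapln4, a link protein of the matrix around neurons, had 70.7, 68.3 and 72.7 CPM in cKO and 65.4, 58.0 and 62.2 CPM in flox libraries (0.19, SE 0.06). Faim2, an inhibitor of Fas-mediated death in neurons, and Calb1, a calcium buffer, stood at 0.20 (SE 0.06) and 0.19 (SE 0.06). Without flox library 1 there were 9 higher members, and 1 with the spread shared with the CFA libraries. The 15 genes of a list of general sensory ganglion neuron genes, which holds the nociceptor channels Scn10a and Scn11a, had a median of -0.03, with 1 lower and 0 higher at an unadjusted p under 0.05. In the con/ko libraries the A-fibre list had a median of 0.07. There 2 members were higher and 0 lower, beside 2.69% and 3.91% of all genes tested.

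Myelin genes of Schwann cells also stood mostly above 0: 15 of 16 were above 0, 5 were higher and 0 lower at an unadjusted p under 0.05, beside 2.24% and 2.32% of all genes tested, and 0 passed the test. The median was 0.10. It was 0.0608 without cKO library 2, 0.17 without cKO library 3, 0.0327 without flox library 1 and 0.23 without flox library 2. There were 3 higher members without cKO library 2 and 2 with the spread shared with the CFA libraries. Egr2, the transcription factor that drives myelination, had 17.3, 15.4 and 15.7 CPM in cKO, against 11.3, 13 and 11.8 CPM in flox libraries (0.43, SE 0.09, adjusted p = 0.991 by edgeR and 0.0369 by DESeq2). Prx, periaxin of the Schwann cell membrane, had 392, 413 and 381 CPM in cKO and 316, 364 and 307 CPM in flox libraries (0.26, SE 0.07, DESeq2 adjusted p = 0.0318). Mbp, myelin basic protein, had 1233, 1298 and 1221 CPM in cKO and 953, 1180 and 1015 CPM in flox libraries (0.25, SE 0.08). In the con/ko libraries the list had a median of -0.28. There 3 were lower and 0 higher at an unadjusted p under 0.05, beside 3.91% and 2.69% of all genes tested.

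**Figure D4:**
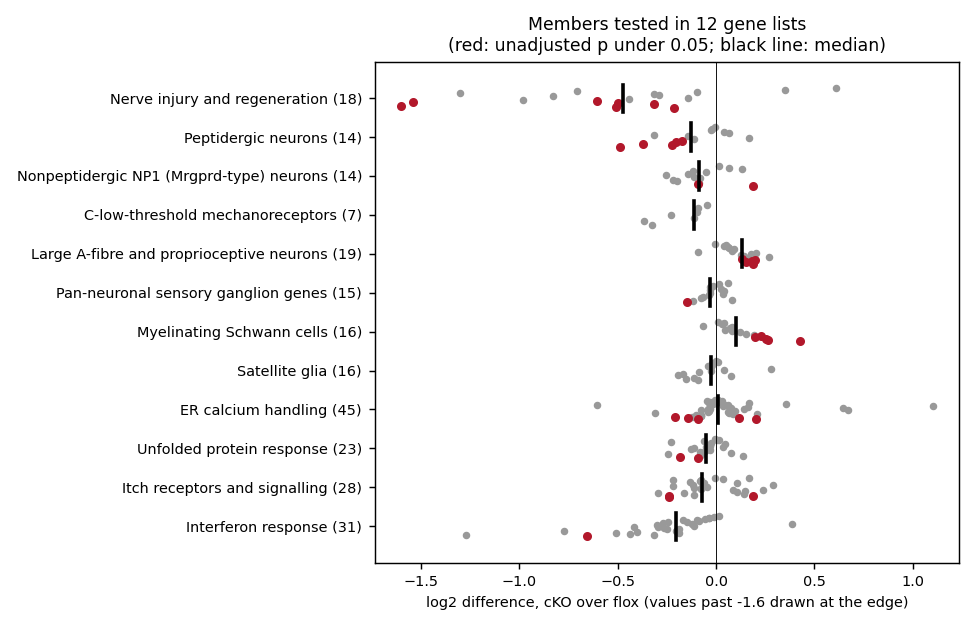
Log2 difference of cKO over flox (horizontal axis) of each tested member of 12 gene lists, with members at an unadjusted p under 0.05 in red, the others in grey and the median of each list as a black line; numbers in parentheses count the members tested, and values past -1.6 are drawn at the edge. The injury list has its median at -0.47, the A-fibre list at 0.13, and the ER calcium list at 0.01.

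Genes of calcium handling in the endoplasmic reticulum were centred on 0. Of 45 tested, 2 were higher and 3 lower at an unadjusted p under 0.05, beside 2.24% and 2.32% of all genes tested. Of the 45, 0 passed the test, and the median was 0.01. Without cKO library 1 there were 1 higher and 5 lower members (median -0.03), and without cKO library 3 there were 0 of either. Ryr2, a calcium release channel, had 104, 95.1 and 101 CPM in cKO and 96.0, 80.4 and 84.9 CPM in flox libraries (0.20, SE 0.07). Stim1, the calcium sensor of the reticulum, had 66.3, 65.0 and 67.2 CPM in cKO and 61.2, 58.2 and 63.6 CPM in flox libraries (0.12, SE 0.05). Hspa5, the chaperone BiP, had 331, 324 and 320 CPM in cKO and 352, 338 and 351 CPM in flox libraries (-0.09, SE 0.04). The 23 genes of the unfolded protein response had a median of -0.05, with 2 lower and 0 higher. Manf, a factor released under stress of the reticulum, stood at -0.18 (SE 0.08).

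Itch and TRP channel genes gave few differences. Of 28 itch genes tested, 1 was higher and 2 lower at an unadjusted p under 0.05, and 0 passed the test. Of all genes tested, 2.24% were higher and 2.32% lower at that threshold. Trpa1, the irritant-sensing channel, had 80.4, 74.4 and 80.5 CPM in cKO, against 99.1, 89.5 and 88.8 CPM in flox libraries (-0.24, SE 0.06, adjusted p = 0.991). Its groups did not overlap. The 23 TRP channels had a median of 0.01, with 2 lower and 0 higher.

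Interferon response genes varied between libraries of the same genotype. Of 31 tested, 29 were below 0, and 1 was lower and 0 higher at an unadjusted p under 0.05. The shares over all genes tested were 2.32% and 2.24%. The median of the 31 genes was -0.21. Their summed level was 807, 1372 and 882 CPM in cKO and 1204, 1357 and 858 CPM in flox libraries, so that both groups held low and high libraries. Without flox library 2 the median was 0.0153, and without cKO library 2 it was -0.46. Oas2, which activates RNase L in antiviral defence, had 1.33, 2.54 and 1.63 CPM in cKO and 2.64, 3.38 and 2.66 CPM in flox libraries.

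Among the 20 largest differences at 5 CPM or more, the groups overlapped at 18, the exceptions being Kif20a and Rpl15, and 0 passed the test. Thnsl1 had 23.8, 23.2 and 1.5 CPM in cKO, against 1.51, 1.70 and 1.10 CPM in flox libraries. Hnrnpa3, an RNA-binding protein gene, had 149 CPM in cKO library 2, and 5.97 to 8.24 CPM in the other 5 libraries. Ackr1, a chemokine-binding receptor, had 112 CPM in flox library 2 and 1.43 to 1.94 CPM in the other 5. Ackr1 overlaps Cadm3, and the 2 together had 639 to 706 CPM in all 6 libraries. Of the other 17 genes with the largest differences, 6 were of skeletal muscle (Myh4, Tnni2, Mylpf, Mylf-ps, Mybpc2 and Myh1). Rpl15, a ribosomal protein gene, had 64.1, 1.29 and 1.21 CPM in cKO and 72.1, 70.9 and 68.8 CPM in flox libraries, with cKO library 1 near the flox level.

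More generally, 72 genes were at 0 to 3 counts in at least 1 LDRG library and at 100 or more in another. Of these, 11 were on the skeletal muscle list, and 1, H2ac18, was low in all 3 libraries of one genotype and in none of the other. Timm29, a subunit of a mitochondrial import complex, had 5179, 5416 and 4610 counts in cKO libraries and 5935, 0 and 6029 counts in flox libraries. Nlgn3, a synaptic adhesion protein, had 5190, 5 and 4605 counts in cKO and 0, 4 and 4598 counts in flox libraries. Rps18-ps4 and Rps18-ps6 are overlapping pseudogenes: Rps18-ps6 had 1372, 1321 and 1050 counts in cKO and 0, 1473 and 0 counts in flox, while Rps18-ps4 had 0, 0 and 0 counts in cKO and 1417, 0 and 1431 counts in flox libraries. Their sum was 19.2, 18.3 and 16.9 CPM in cKO and 19.7, 20.6 and 19.9 CPM in flox libraries. Of the 71 such genes with a known position, 74.6% overlapped another annotated gene, beside 54.6% of all tested genes with a position.

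**Figure D5:**
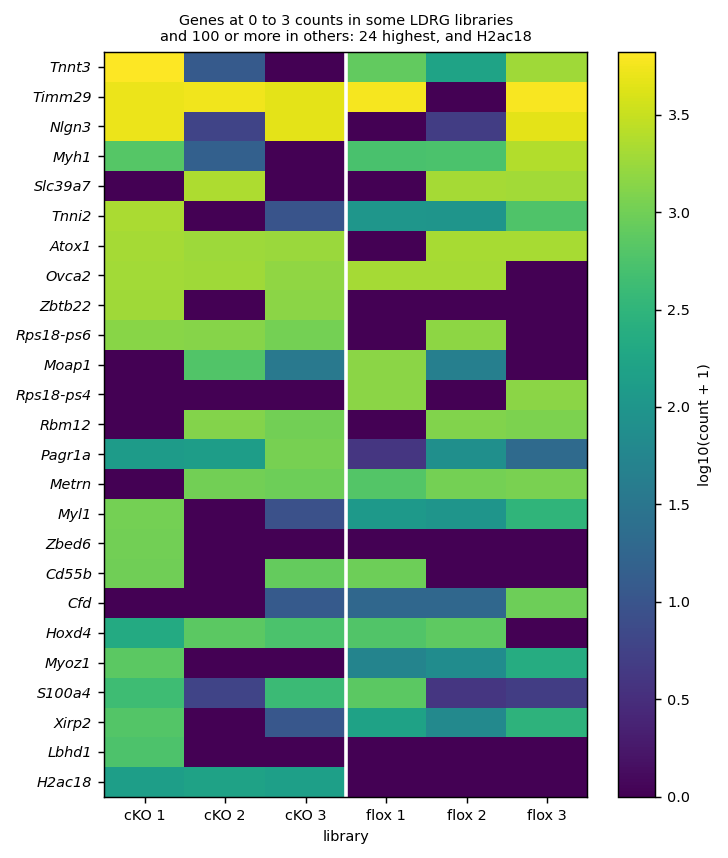
Counts (colour, log10 of count + 1) of the 24 most abundant genes at 0 to 3 counts in some LDRG libraries and 100 or more in others, and of H2ac18, in cKO libraries 1 to 3 (left) and flox libraries 1 to 3 (right). H2ac18 in the bottom row is the one gene shown that is high in all cKO and low in all flox libraries.

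Genes near the targeted loci did not pass the test. Within 1 Mb of Tmem45b 12 other genes were tested, of which 0 passed the edgeR test or had an unadjusted p under 0.05. Adamts8, an extracellular protease gene of that window, had 9.17, 7.51 and 6.53 CPM in cKO and 11.6, 8.03 and 11.5 CPM in flox libraries (-0.42, SE 0.18). Within 1 Mb of Mrgprd 13 were tested, of which 0 passed. Of the 13, 1 was lower at an unadjusted p under 0.05, beside 2.32% of all genes tested. This was Cttn, an actin-binding protein, at 126, 130 and 129 CPM in cKO and 136, 138 and 146 CPM in flox libraries (-0.13, SE 0.04).

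The con/ko libraries gave a separate comparison of the same genotypes, within the limits of sex, body level and muscle RNA given above. There the log2 difference of Tmem45b was -1.02 (SE 0.10), and the difference between the sets was 0.02 (SE 0.15, unadjusted p = 0.885). Of the 20 genes with the smallest p in the LDRG set, 11 had the same sign in con/ko, beside 52.4% of the 15868 genes tested in both sets, and 1 (Tmem45b) had an unadjusted p under 0.05 there. Vgf stood at 0.13 there (SE 0.20), and the difference between the sets was -0.64 (SE 0.24, adjusted p = 0.888). The test of the difference called 1 of 16706 genes (0.00599%), the potassium channel gene Kcnb2. Kcnb2 had 10.6, 9.58 and 9.88 CPM in LDRG cKO and 10.2, 8.31 and 9.0 CPM in LDRG flox libraries, while con/ko libraries had 156 to 189 CPM in cKO and 7.56 to 10.8 CPM in flox.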

How the data were processed

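Raw counts per gene were deposited by the authors in 1 table of 14 libraries that holds the LDRG and CFA libraries and another of 7 con/ko libraries. Per the submitters' processing notes, the build was mm10 and the tools named were BWA 2.2.1, fastp 0.23.2, SAMtools 1.14 and DESeq2 1.40.2, with no role given. The counting tool and its use of strand are not given in the sources used here. Among LDRG counts, values of 4 (1699) were commoner than values of 3 (862).

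The 6 LDRG libraries were fitted alone in R 4.3.3 with edgeR 4.0.16 (filterByExpr with a minimum count of 10 and total of 15, TMM, quasi-likelihood F test, Benjamini-Hochberg adjustment over 16050 genes, threshold 0.05). The difference between sets was an interaction term over 13 libraries. DESeq2 1.42.0 was an alternative. The tests were checked on simulated counts. Positions came from GENCODE vM21 and RefSeq GRCm38.p6 for 98.7% of genes. Replicates differed by more than sampling noise (chi-square per degree of freedom 26.2 to 47.5).

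The members and the gene lists were chosen with earlier results of these data known. Named genes are Tmem45b, Mrgprd, called genes, the 20 smallest p (1 CPM or more on average in either group), up to 4 smallest p per list, the 10 largest differences each way at 5 CPM or more, genes at 2 levels, and the 4 smallest p within 1 Mb of each target. Some members of the lists are not reported here by name.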

Additional observations from a re-analysis of the deposited data

Results flagged for a closer look

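Kcnb2, which encodes a voltage-gated potassium channel, differed between the sets of untreated libraries in its genotype difference, by a test of that difference itself. The LDRG minus con/ko difference was -4.06 on the log2 scale (SE 0.18, adjusted p = 9.29e-07, edgeR quasi-likelihood test), with a log2 difference of cKO over flox of 0.13 (SE 0.10) in LDRG and 4.2 (SE 0.15) in con/ko. The con/ko libraries differ between genotypes in muscle RNA and in how many carry the letter C in their names, and the part of either was not tested. All 4 con/ko cKO libraries lay above all 9 other untreated libraries.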

How the results depend on the processing

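The log2 difference of Tmem45b lay between -1.07 and -0.93 under every alternative run, and its call did not hold under all: it was -1.01 with no filter beyond 1 count (adjusted p = 0.0904), -1.005 with the spread shared with the CFA libraries (adjusted p = 1) and -0.986 with a skeletal muscle score as covariate (adjusted p = 0.118). Each of these 3 called 0 genes in edgeR, 0 higher and 0 lower, so Scaf11 and H2ac18 lost their calls too. At an unadjusted p under 0.05 they had 408, 316 and 320 higher and 424, 310 and 499 lower genes. RLE size factors and genes of both tables only called 3 genes. DESeq2 called 49 (18 higher, 31 lower). A mean of at least 5 CPM called 2 genes (1 higher, 1 lower), as did leaving out genes at 2 levels, chosen after the data were seen (1 higher, 1 lower). Both settings left H2ac18 untested, so it could not be called there. Leaving out 1 library gave 3 to 11 calls (1 to 6 higher, 1 to 5 lower). There were 11 without flox library 3, 7 without cKO library 1, flox library 1 or flox library 2, and 3 without cKO library 2 or 3. The genes called were Ppm1h, Zbtb22 and Pus3 without cKO library 2, and Zfp715, Edem3 and Thnsl1 without cKO library 3. Tmem45b, Scaf11 and H2ac18 were not among them. Over 15 alternatives, Scaf11 was called in 8, Tmem45b in 7 and H2ac18 in 6, and the 15 include the settings that left H2ac18 untested. With 1 library left out, Tmem45b stood at -1.07 to -0.93 (adjusted p 0.0404 to 0.0887). Myh4 stood at 2.68, and at -4.05 (adjusted p = 0.0042) to 3.27 with 1 library left out, the lowest without cKO library 1.

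With a replicate block, pairing samples by number, edgeR called 0 genes (0 higher, 0 lower; 374 higher and 388 lower at an unadjusted p under 0.05) and Tmem45b stood at -1.009 (adjusted p = 0.428). The deviations of same-numbered samples correlated at -0.009, 0.111 and 0.021. The highest correlations with a sample of another number were 0.093, 0.02 and -0.01. The labels give no pairing beyond the number, and so few values cannot decide whether the samples were paired.

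The difference between sets called 42 genes by DESeq2 (31 higher, 11 lower), 4 with a replicate block (3 higher) and 1 to 5 (0 to 2 higher, 1 to 4 lower) when 1 library was left out. Genes at 2 levels numbered 83 with 0 to 10 counts as low and 37 with 300 or more as high.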

Other observations

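In the lists below, 0 genes passed the edgeR test. Apod, an apolipoprotein of nerve fibroblasts, had 704, 768 and 803 CPM in cKO, against 607, 551 and 656 CPM in flox libraries (0.33, SE 0.08, DESeq2 adjusted p = 0.00268). Dcn, the matrix proteoglycan decorin, had 322, 337 and 325 CPM in cKO and 274, 257 and 301 CPM in flox libraries (0.24, SE 0.06, DESeq2 adjusted p = 0.0302). Of 18 fibroblast and meningeal genes tested, 2 were higher and 0 lower at an unadjusted p under 0.05, with a median of -0.0026 (9 above 0, 9 below), and 0.15 without flox library 3. The 21 collagen chains had 1 higher and 0 lower, with a median of -0.02 (9 above 0, 12 below), and 4 lower without flox library 1. Among 30 Hox genes, which record position along the body axis, 3 were higher and 0 lower, beside 2.24% and 2.32% of all genes tested. Only 1 was higher without cKO library 1 or flox library 1. Hoxc6 had 9.97, 11.6 and 4.40 CPM in cKO and 3.36, 4.19 and 3.20 CPM in flox libraries (1.27, SE 0.34, DESeq2 adjusted p = 0.00683), and in con/ko it stood at -1.06 (SE 0.85), where 3 of 4 cKO and 1 of 3 flox libraries carry the letter C and lack Hoxc10.

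Ion channels and inhibitory receptors gave small differences in both directions. Among 27 voltage-gated potassium channels 3 were higher and 3 lower at an unadjusted p under 0.05, beside 2.24% and 2.32% of all genes tested. These counts were 0 higher and 3 lower without cKO library 1 or flox library 2, 5 and 1 without cKO library 2, 1 and 0 without cKO library 3, 7 and 0 without flox library 1, and 4 and 1 without flox library 3. Kcnh2, of the ERG family, had 101, 88.7 and 101 CPM in cKO and 85.6, 81.5 and 87.3 CPM in flox libraries (0.19, SE 0.06). Scn4b, a sodium channel beta subunit, had 526, 513 and 571 CPM in cKO and 508, 437 and 445 CPM in flox libraries (0.21, SE 0.07). Gabrg1, a subunit of the GABA-A receptor, had 53.3, 59.8 and 64.4 CPM in cKO and 49.0, 50.5 and 40.7 CPM in flox libraries (0.34, SE 0.10). Oprd1, the delta opioid receptor, had 14.6, 13.5 and 17.9 CPM in cKO and 13.5, 12 and 11.9 CPM in flox libraries (0.30, SE 0.12).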
